A study of Homo sapiens with 6 samples.

Results

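STRIPAK scaffold and adaptor genes were examined in HCT116 cells, an established human colorectal cancer cell line, with and without overexpression of the kinase MST3. The 9 genes were chosen by name as the striatins STRN, STRN3 and STRN4, the STRIP subunit STRIP2 and the adaptors MOB4, SLMAP, SIKE1, FGFR1OP2 and CTTNBP2NL, without the kinases and phosphatase subunits of the complex. Each matched 1 of the 58938 entries of the deposited table, and all 9 were among the 13036 tested genes, whose FPKM (fragments per kilobase of gene, scaled for each library) averaged 1 or more. The OE-MST3 group held 3 RNA sequencing libraries from HCT116 cells with the genotype given as overexpression of MST3, and the vector group held 3 libraries from HCT116 cells with the genotype given as WT. Both groups were transfected by lipofection at 60% density, had their medium renewed after 6 hours and gave RNA after 30 hours. The overexpression was therefore transient, and the promoter of the plasmid, the form of MST3 it encodes and the share of cells that took it up are unstated in these sources. The labels number the libraries within a group without saying whether they came from separate cultures, so p-values measure the spread among these libraries only, and that spread may be technical.

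STRIPAK (striatin-interacting phosphatase and kinase) is a complex that joins the phosphatase PP2A to kinases of the GCKIII family, of which MST3 (gene STK24) is a member. The striatins are its scaffolds: a coiled coil holds the PP2A core enzyme, and the WD40 repeats at the other end contact further partners. MOB4 and the STRIP proteins are core subunits, PDCD10 (CCM3) bridges the GCKIII kinases to the striatins, and SLMAP, SIKE1, FGFR1OP2 and CTTNBP2NL bring in further partners. The forkhead-associated domain of SLMAP binds the phosphorylated Hippo kinases MST1 and MST2, which places them next to PP2A and restrains the Hippo pathway. The comparison of OE-MST3 with vector libraries shows whether the mRNAs of this docking machinery differed when the mRNA of 1 of its kinases was raised.

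Promoter windows from RefSeq (GRCh38.p14, running from before a transcription start to a little past it) were found for 8 of the 9 genes. Where a gene had several, the window nearest the start of its GENCODE 29 principal transcript was taken. The windows of MOB4, CTTNBP2NL and SLMAP are printed because MOB4 was the gene whose groups did not overlap, CTTNBP2NL had the largest difference, and SLMAP was the 1 gene with a match to the core motif of the TEAD factors through which YAP acts. They run 5′ to 3′ on the gene's strand, and capitals mark matches to any of 7 motifs searched on both strands.
MOB4 chr2:197515816-197516115, plus strand: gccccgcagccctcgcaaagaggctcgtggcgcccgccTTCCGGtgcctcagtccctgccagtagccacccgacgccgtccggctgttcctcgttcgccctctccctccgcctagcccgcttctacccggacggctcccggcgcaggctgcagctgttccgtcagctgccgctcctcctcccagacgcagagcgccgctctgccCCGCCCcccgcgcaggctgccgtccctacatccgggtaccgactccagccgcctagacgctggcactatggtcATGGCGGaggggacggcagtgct
CTTNBP2NL chr1:112395964-112396263, plus strand: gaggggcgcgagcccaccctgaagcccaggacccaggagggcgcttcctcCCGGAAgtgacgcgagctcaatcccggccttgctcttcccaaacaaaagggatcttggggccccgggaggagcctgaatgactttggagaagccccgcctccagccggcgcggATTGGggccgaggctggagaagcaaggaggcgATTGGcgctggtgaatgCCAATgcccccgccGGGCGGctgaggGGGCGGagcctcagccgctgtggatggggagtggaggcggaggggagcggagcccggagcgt
SLMAP chr3:57756059-57756358, plus strand: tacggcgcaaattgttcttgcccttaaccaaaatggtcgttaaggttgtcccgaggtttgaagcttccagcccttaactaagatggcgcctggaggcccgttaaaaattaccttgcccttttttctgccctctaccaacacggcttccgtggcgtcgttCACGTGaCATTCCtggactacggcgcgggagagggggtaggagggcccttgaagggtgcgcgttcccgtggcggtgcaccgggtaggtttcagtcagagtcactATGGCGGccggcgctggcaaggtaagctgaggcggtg
Positions are counted from the RefSeq start inside each window, which can differ from the start of the GENCODE principal transcript. That transcript starts at 57756230 for SLMAP and at 197515832 for MOB4, both inside the printed windows. Most of the MOB4 window therefore lies after its principal start. In SLMAP the TEAD core CATTCC began at position -84 from the RefSeq start, on the gene's strand, and an E-box CACGTG at position -91. That TEAD core ends at the start of the GENCODE principal transcript, 57756230. The TEAD core was in 1 of the 8 windows and in 14% of all 35116 windows of the table, and the E-box was in 1 of 8 and in 7.26% of all. The GC box GGGCGG was in 6 of 8 windows against 45% of all, and YY1's ATGGCGG in 3 of 8 (STRN3, MOB4 and SLMAP) against 5.55% of all. In these 3 windows the YY1 letters began at positions 20, 28 and 14, past the RefSeq start. CCGGAA, the core bound by ETS factors, was in 3 of 8 windows against 17.2%, CCAAT in 2 of 8 against 34.6%, and the TATA box TATAAA in 0 of 8 against 11.5% of all. These are matches of letters, not measured binding sites.

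The reads behind the FPKM values came to 15289213 to 17209736 per OE-MST3 library and 17296201 to 17708029 per vector library. STK24 stood at 63.7, 72.2 and 76 FPKM in OE-MST3 replicates 1 to 3, against 17.1, 17.4 and 17.4 FPKM in vector replicates 1 to 3, and was the 1 gene called over all genes, with a difference of 1.97 in log2(FPKM + 1) (adjusted p = 0.000998 by limma). In bulk RNA, more transfected cells and more STK24 mRNA per cell cannot be told apart. All 5 epithelial markers (EPCAM, KRT8, KRT18, KRT19 and CDH1) were expressed, with summed levels of 1528 to 1935 FPKM in OE-MST3 and 1611 to 1661 FPKM in vector libraries. Of 9 leukocyte, fibroblast and endothelial markers, COL1A1 alone averaged 1 FPKM or more, and the other 8 stayed at or below 0.168 FPKM in every library. Libraries of the OE-MST3 group differed more among themselves than vector libraries did, with a chi-square per degree of freedom of 28.1 to 36.1 between pairs of OE-MST3 libraries and 7.83 to 9.31 between pairs of vector libraries. OE-MST3 replicate 1 had reads on 27442 genes, against 25099 to 25501 in the vector libraries.

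None of the 9 scaffold and adaptor mRNAs passed the test. Their ratios of mean FPKM, OE-MST3 over vector, lay between 0.864 for CTTNBP2NL and 1.09 for STRN4, and all 9 of the 95% intervals included 0. By limma on log2(FPKM + 1), 0 of 9 had an adjusted p under 0.05, against 0.00767% of all tested genes, and 0 of 9 had an unadjusted p under 0.05, against 5.38%. Adjusted p-values ran from 0.719 to 0.96. The voom method of limma, run on reads, called 0 of 9 too, with unadjusted p-values of 0.1 and above. Of the 9 genes 6 were lower and 3 higher, with a median difference of -0.07. Over all tested genes 53.4% were lower and the median was -0.01. In the fit on reads, which gives plain fold changes, the 95% intervals reached from 0.726-fold for MOB4 at the low end to 1.32-fold for STRN4 at the high end. In simulated data of this design the test recovered 38.8% of genes changed 1.5-fold and 88.1% of those changed 2-fold. The simulation gave all libraries the same spread, which the OE-MST3 libraries did not have. It also gave all genes the same spread beyond counting error, and no library trend with GC content. With 200 changed genes, the p needed to pass the adjustment was less strict there than in the data, where 1 gene was called. Recovery may therefore be lower in these data, and lower still for genes that vary more. The values for all 9 genes and the intervals are shown in the plots of FPKM by library and of differences.

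**Figure D1:**
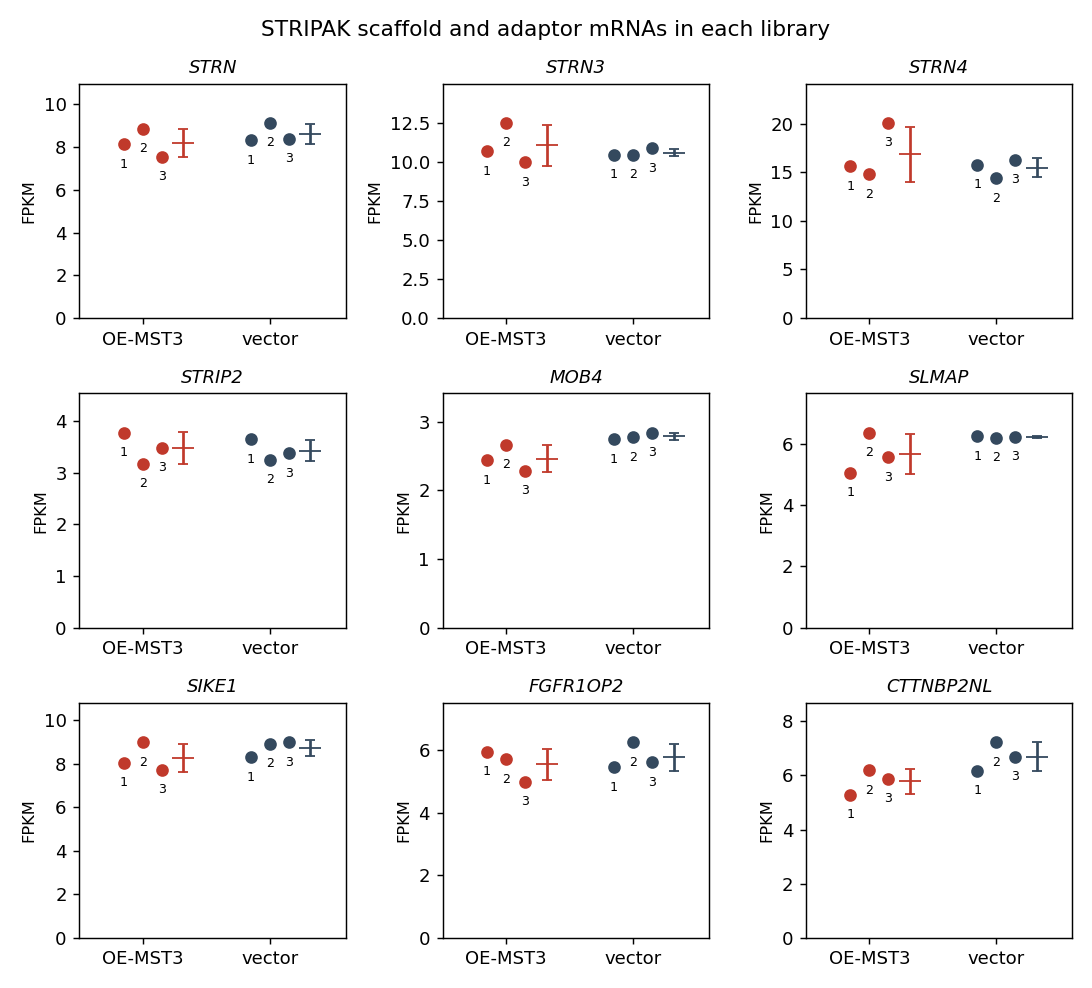
FPKM of the 9 genes in each library (y axes from 0), with OE-MST3 libraries left of vector libraries; points are libraries labelled by replicate number, and the bar beside them is the mean ± SD (n = 3 per group). MOB4 is the only one of the 9 whose groups do not overlap, with OE-MST3 values of 2.28 to 2.67 FPKM below vector values of 2.74 to 2.84 FPKM.

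**Figure D2:**
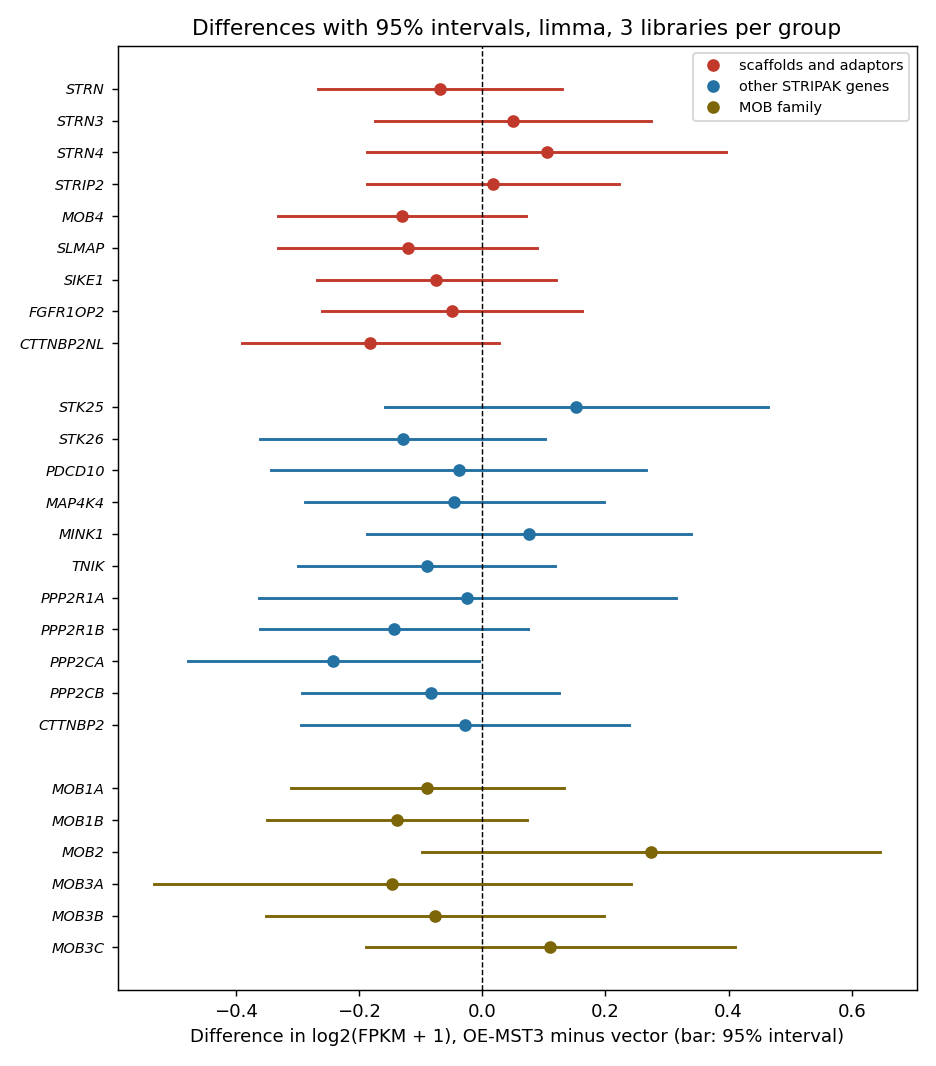
Differences in log2(FPKM + 1), OE-MST3 minus vector, from limma for the 9 scaffold and adaptor genes, other tested STRIPAK genes (STK24, at 1.97, is not drawn) and the MOB family; points are estimates and bars 95% intervals. Every interval of the 9 genes crosses 0, and of the genes drawn only that of PPP2CA lies below it.

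By level, STRN4 was the highest of the 9 and MOB4 the lowest, 6.16-fold apart per length of gene. Mean FPKM over the 6 libraries was 16.2 for STRN4, 10.8 for STRN3, 8.49 for SIKE1, 8.4 for STRN, 6.24 for CTTNBP2NL, 5.93 for SLMAP, 5.65 for FGFR1OP2, 3.45 for STRIP2 and 2.62 for MOB4. These are moderate levels: STRN4 stood above 79.6% of tested genes and MOB4 above 25.7%. STRN4 exceeded STRN3, and STRN3 exceeded SIKE1, in every library with no overlap of their ranges. SIKE1 and STRN were not separated, each being the higher in 3 of 6 libraries. STRN lay above CTTNBP2NL in 6 of 6 libraries without overlap. CTTNBP2NL overlapped SLMAP, and SLMAP overlapped FGFR1OP2, while STRIP2 lay below FGFR1OP2 and above MOB4 without overlap.

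The order depends on the length by which reads are divided. The authors' lengths equal the union of all GENCODE 29 exons of a gene, which for SLMAP is 14147 bp where its principal transcript has 5433 bases, and for SIKE1 is 5894 bp where the transcript has 2190. Divided instead by the principal transcript, SIKE1 moved to the second place and SLMAP to the third, while STRN moved to the sixth. STRN4, STRIP2 and MOB4 kept the first, eighth and ninth places. STRN4 was then at 38.5 and MOB4 at 2.83 FPKM per length of that transcript, farther apart than per length of gene. Coding sequence of the principal transcript made up 10.5% of the counted length for SIKE1, 12.7% for FGFR1OP2, 15.7% for MOB4 and 17.2% for SLMAP, and between 25.9% for CTTNBP2NL and 43.1% for STRN3 among the rest. The ratio of 1 gene's mean FPKM between groups does not depend on these lengths, whereas its difference in log2(FPKM + 1) does through the added 1: for MOB4 it was -0.13, and -0.17 with 0.1 added instead.

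For the 3 striatins, the scaffolds of the complex, the ratios of mean FPKM were 0.949 for STRN, 1.04 for STRN3 and 1.09 for STRN4. None of them was called. STRN (ENSG00000115808, chromosome 2, 36843640 to 36966472, minus strand, GRCh38) had 8.14, 8.85 and 7.56 FPKM in OE-MST3 replicates 1 to 3, against 8.33, 9.14 and 8.39 FPKM in vector replicates 1 to 3. The groups overlapped, and the means were 8.18 ± 0.647 FPKM in OE-MST3 and 8.62 ± 0.453 FPKM in vector libraries (SD, n = 3 each). The log2 difference was -0.07 (SE 0.08, 95% interval -0.27 to 0.13; limma adjusted p = 0.806). STRN3 (ENSG00000196792, chromosome 14, 30893799 to 31026401, minus strand), also known as SG2NA, had 10.7, 12.5 and 9.95 FPKM in OE-MST3 libraries, against 10.5, 10.4 and 10.8 FPKM in vector libraries. OE-MST3 replicate 2 was the highest of the 6 and OE-MST3 replicate 3 the lowest, so the OE-MST3 values enclosed all vector values. The difference was 0.05 (SE 0.10, interval -0.17 to 0.27; limma adjusted p = 0.879), and it was -0.04 without OE-MST3 replicate 2. Of the exon bases of STRN3, 308 (6.2%) are also exon bases of other genes, 153 of them of COCH on the opposite strand and 155 of the processed pseudogene HIGD1AP17.

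STRN4 (ENSG00000090372, chromosome 19, 46719507 to 46746994, minus strand), also called zinedin, was the highest of the set and had the widest spread among OE-MST3 libraries. It had 15.6, 14.8 and 20.1 FPKM in OE-MST3 replicates 1 to 3, against 15.8, 14.4 and 16.3 FPKM in vector replicates 1 to 3. Replicate 3 of OE-MST3 stood above the other 5 libraries, and the other OE-MST3 values lay within the vector range. The means were 16.8 ± 2.86 FPKM in OE-MST3 and 15.5 ± 0.998 FPKM in vector libraries (SD, n = 3 each), with a log2 difference of 0.10 (SE 0.12, interval -0.19 to 0.40; limma adjusted p = 0.801). Without OE-MST3 replicate 3 the difference was -0.02. The coefficient of variation among OE-MST3 libraries was 17%, where counting a mean of 2167 reads gives 2.15%.

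Because the striatins share the scaffold role, their shares of summed striatin FPKM were compared, a measure that does not depend on how libraries are scaled. It can still follow differences between libraries tied to GC content, which is 63.9% for STRN4, 37.8% for STRN and 40.7% for STRN3. The part of GC content in the shares was not tested. The sum itself was 34.4, 36.1 and 37.6 FPKM in OE-MST3 libraries and 34.6, 34 and 35.5 FPKM in vector libraries. STRN4 made up 45.4, 40.9 and 53.5% of it in OE-MST3 replicates 1 to 3, against 45.6, 42.3 and 45.9% in vector replicates 1 to 3. The OE-MST3 values lay on both sides of the vector range, with a difference of means of 1.99 percentage points (two-sided exact permutation p = 0.9). Without OE-MST3 replicate 3 that difference was -1.45 points. STRN3 held 30.7 ± 4.07% in OE-MST3 and 30.5 ± 0.246% in vector libraries (SD, n = 3 each; exact permutation p = 0.8), and STRN held 22.7 ± 2.33% in OE-MST3 and 24.9 ± 1.79% in vector libraries (SD, n = 3 each; exact permutation p = 0.5). In each of the 3 shares the groups overlapped. With 3 libraries against 3 no p below 0.1 is possible, and the 4 shares tested were not adjusted because the smallest p was 0.5.

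**Figure D3:**
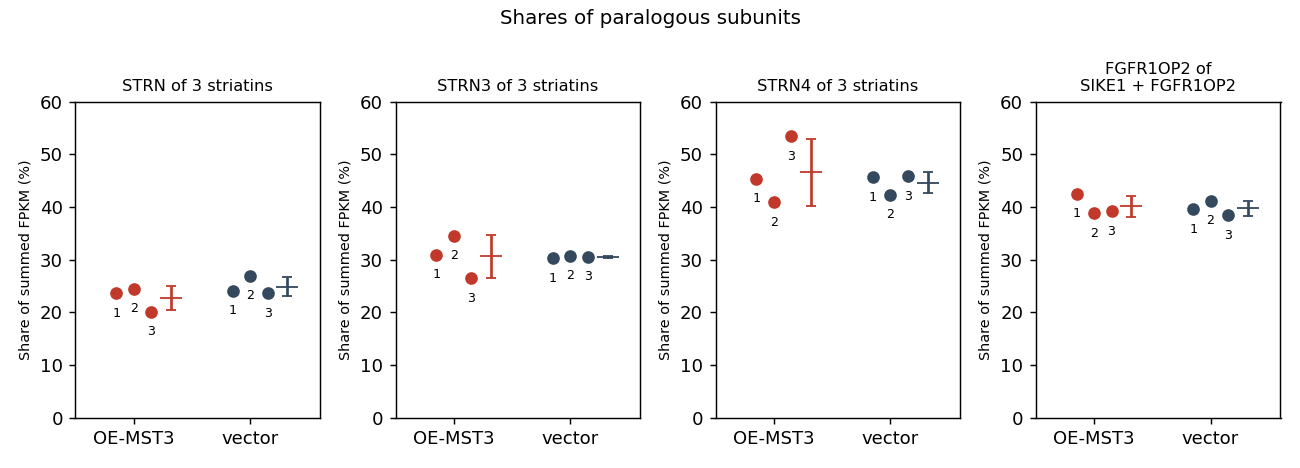
Share of each striatin in the summed FPKM of STRN, STRN3 and STRN4, and of FGFR1OP2 in the sum with SIKE1, in percent (y axis from 0); points are libraries labelled by replicate number, OE-MST3 left of vector, with mean ± SD beside them (n = 3 per group). STRN4 reaches 53.5% in OE-MST3 replicate 3, and the OE-MST3 points spread more widely than the vector points in all 4 panels.

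The kinase mRNAs were also set against the striatin mRNAs, as a description. The summed FPKM of the GCKIII kinases STK24, STK25 and STK26 was 2.65 ± 0.119 times the striatin sum in OE-MST3 libraries and 1.21 ± 0.00757 times in vector libraries (SD, n = 3 each). STK24 by itself was 1.96 ± 0.0925 times the striatin sum in OE-MST3 libraries and 0.499 ± 0.0122 times in vector libraries (SD, n = 3 each). These ratios include STK24, the gene that was overexpressed, and are of mRNA and not of protein.

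STRIP2 (ENSG00000128578, chromosome 7, 129434433 to 129488399, plus strand), a core subunit that binds striatins, had 3.78, 3.17 and 3.49 FPKM in OE-MST3 replicates 1 to 3, against 3.65, 3.25 and 3.37 FPKM in vector replicates 1 to 3. The groups overlapped almost fully. Its difference was the smallest of the 9, 0.02 (SE 0.09, interval -0.19 to 0.22; limma adjusted p = 0.96), and the sign turned without OE-MST3 replicate 1 (-0.03) or without vector replicate 2 (-0.01). Each value rested on 324 to 377 reads, for which counting alone gives a coefficient of variation of about 5.4% in OE-MST3 and 5.35% in vector libraries, against 8.67% seen in OE-MST3 and 6.02% in vector libraries.

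MOB4 (ENSG00000115540, chromosome 2, 197515571 to 197553699, plus strand), or phocein, a MOB protein that has a fixed place in the complex, was the 1 gene of the 9 whose groups did not overlap. It had 2.44, 2.67 and 2.28 FPKM in OE-MST3 replicates 1 to 3, against 2.74, 2.77 and 2.84 FPKM in vector replicates 1 to 3. Every OE-MST3 value was below every vector value, a pattern found in 6.7% of tested genes for this direction, 5.19% for the opposite one and 11.9% for either. The means were 2.46 ± 0.194 FPKM in OE-MST3 and 2.78 ± 0.0512 FPKM in vector libraries (SD, n = 3 each), a ratio of 0.884. The log2 difference was -0.13 (SE 0.09, interval -0.33 to 0.07), which did not pass (limma adjusted p = 0.719). MOB4 also had the fewest reads, 167, 199 and 168 in OE-MST3 and 207, 204 and 213 in vector libraries, so that counting error of 7.5% in OE-MST3 libraries was nearly as large as their coefficient of variation of 7.86%. In vector libraries the coefficient of variation of 1.84% was below the counting error of 6.93%. Of its 4296 exon bases, 698 (16.2%) are also exon bases of the read-through gene HSPE1-MOB4, to which 0 to 2 reads per library were assigned. How reads on shared exons were assigned is not given in the sources used here, so the level of MOB4 is uncertain.

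SLMAP (ENSG00000163681, chromosome 3, 57755450 to 57929168, plus strand), the adaptor toward the Hippo kinases, had 5.05, 6.36 and 5.55 FPKM in OE-MST3 replicates 1 to 3, against 6.24, 6.19 and 6.22 FPKM in vector replicates 1 to 3. Both OE-MST3 replicates 1 and 3 were below all vector libraries, while OE-MST3 replicate 2 was above them. The mean was 5.65 ± 0.66 FPKM in OE-MST3 and 6.21 ± 0.0237 FPKM in vector libraries (SD, n = 3 each), with a difference of -0.12 (SE 0.09, interval -0.33 to 0.09; limma adjusted p = 0.726). The vector values agreed to a coefficient of variation of 0.382%, tighter than the 2.56% that counting their mean of 1529 reads gives. The window with the TEAD core printed above belongs to this gene, which overlaps no exon of another gene.

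SIKE1 and FGFR1OP2 encode paralogous coiled-coil adaptors, SIKE1 being named for its suppression of the kinase IKBKE. SIKE1 (ENSG00000052723, chromosome 1, 114769479 to 114780685, minus strand) had 8.04, 8.98 and 7.72 FPKM in OE-MST3 replicates 1 to 3, against 8.29, 8.92 and 8.97 FPKM in vector replicates 1 to 3. OE-MST3 replicates 1 and 3 were again the lowest pair and OE-MST3 replicate 2 the highest value, so the groups overlapped, and the difference was -0.07 (SE 0.08, interval -0.27 to 0.12; limma adjusted p = 0.786). FGFR1OP2 (ENSG00000111790, chromosome 12, 26938383 to 26966650, plus strand) had 5.94, 5.7 and 4.98 FPKM in OE-MST3 replicates 1 to 3, against 5.44, 6.24 and 5.6 FPKM in vector replicates 1 to 3. Here OE-MST3 replicate 3 alone was below the vector range, with a difference of -0.05 (SE 0.09, interval -0.26 to 0.16; limma adjusted p = 0.874) that was 0.01 without OE-MST3 replicate 3 and 0.0014 without vector replicate 2. The processed pseudogene FGFR1OP2P1 had 0 reads in all 6 libraries. FGFR1OP2 made up 40.2 ± 2.01% of the summed FPKM of the pair in OE-MST3 and 39.7 ± 1.37% in vector libraries (SD, n = 3 each; exact permutation p = 0.8). The difference of 0.436 points was -0.72 points without OE-MST3 replicate 1 and -0.215 points without vector replicate 3.

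CTTNBP2NL (ENSG00000143079, chromosome 1, 112396181 to 112463456, plus strand), a relative of the cortactin-binding protein CTTNBP2, had the largest difference of the 9. It had 5.28, 6.2 and 5.87 FPKM in OE-MST3 replicates 1 to 3, against 6.17, 7.23 and 6.69 FPKM in vector replicates 1 to 3. The groups overlapped by a single pair, OE-MST3 replicate 2 lying just above vector replicate 1. The means were 5.78 ± 0.462 FPKM in OE-MST3 and 6.69 ± 0.528 FPKM in vector libraries (SD, n = 3 each), a ratio of 0.864. The log2 difference was -0.18 (SE 0.09, interval -0.39 to 0.03) and did not pass (limma adjusted p = 0.719). Its paralog CTTNBP2 was lower expressed, with 1.59, 1.48 and 1.86 FPKM in OE-MST3 and 1.64, 1.54 and 1.9 FPKM in vector libraries.

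Beyond the 9 genes, STK24 was the 1 STRIPAK gene called. Of 14 other STRIPAK genes 13 were tested, the exception being TRAF3IP3 at 0.0527 to 0.156 FPKM. Of the 13, 3 were higher and 10 lower, with 1 called (STK24) and a median difference of -0.04 with or without STK24. PPP2CA, a catalytic subunit of PP2A, had 19.1, 23.3 and 21.1 FPKM in OE-MST3 and 24.3, 27.2 and 24 FPKM in vector libraries, with no overlap, and a difference of -0.24 (limma adjusted p = 0.719); it and STK24 were the 2 with an unadjusted p under 0.05. PPP2R1B, a PP2A scaffold subunit, had 4.9 ± 0.395 FPKM in OE-MST3 and 5.53 ± 0.521 FPKM in vector libraries (SD, n = 3 each; limma adjusted p = 0.719). Among the 6 MOB paralogs of MOB4, 2 were higher and 4 lower with 0 called by limma (0 at an unadjusted p under 0.05). The paralogs with the smallest p were MOB2 (a difference of 0.27), MOB1B (-0.14) and MOB1A (-0.09).

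Lowest and highest values were counted by library. OE-MST3 replicate 3 held the lowest value for 5 of the 9 (STRN, STRN3, MOB4, SIKE1 and FGFR1OP2), where 24.4% of all tested genes had their lowest value there, and it held the highest value for STRN4 (28.4% of all). OE-MST3 replicate 1 held the lowest value for SLMAP and CTTNBP2NL (27.4% of all). The highest value lay in OE-MST3 replicate 2 for 3 of the 9 (14.2% of all) and in vector replicate 2 for 3 (23.6% of all). The coefficient of variation was larger among OE-MST3 than among vector libraries for 9 of 9, and for 77.1% of all tested genes. Mean deviations of the 9 from their own means were -0.05, 0.03 and -0.05 in OE-MST3 replicates 1 to 3 and 0.00, 0.04 and 0.03 in vector replicates 1 to 3, on the log2 scale. STRN and SIKE1 were the most alike pair (root mean square difference of their deviations over 6 libraries 0.0385), and STRN4 and FGFR1OP2 the least alike (0.228). Among 10870 other protein-coding genes, those nearest to the mean profile were IQCB1 (0.0128), MARCHF5 (0.0138, written as 5-Mar in the deposited table) and GALNT10 (0.0156), where the median gene lay at 0.116. IQCB1 had 7.48, 8.01 and 7.37 FPKM in OE-MST3 and 7.71, 8.06 and 8.12 FPKM in vector libraries.

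GC content moved with these differences over all tested genes, and its part in them was not tested. When tested genes were divided into 4 equal groups by the GC content of the longest transcript, 7 of the 9 genes lay in the lowest group (up to 42.1%), STRIP2 in the next at 45.1%, and STRN4 in the highest at 63.9%. In the lowest group 76.4% of all tested genes were lower in OE-MST3 libraries, with a median difference of -0.08, and 6 of the 7 genes there were lower. In the highest group 22.2% were lower and the median was 0.10, equal to the difference of STRN4. By library, the median gene of the highest group deviated by 0.25 in OE-MST3 replicate 3 and by -0.10 in OE-MST3 replicate 2, against -0.12 to -0.01 in vector libraries, while that of the lowest group deviated by -0.14 in OE-MST3 replicate 3 and by 0.08 in OE-MST3 replicate 2, against 0.01 to 0.10 in vector libraries. After trends with length and GC content were removed library by library, a step added after seeing the data, STRN4 differed by 0.01, SIKE1 by -0.00, SLMAP by -0.01, MOB4 by -0.07 and CTTNBP2NL by -0.09. STRN and FGFR1OP2 changed sign to 0.03 and 0.02, and the median of the 9 was 0.01. STRN3 then had the largest difference, 0.13 (interval -0.02 to 0.27; limma adjusted p = 0.662), and none of the 9 was called.

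**Figure D4:**
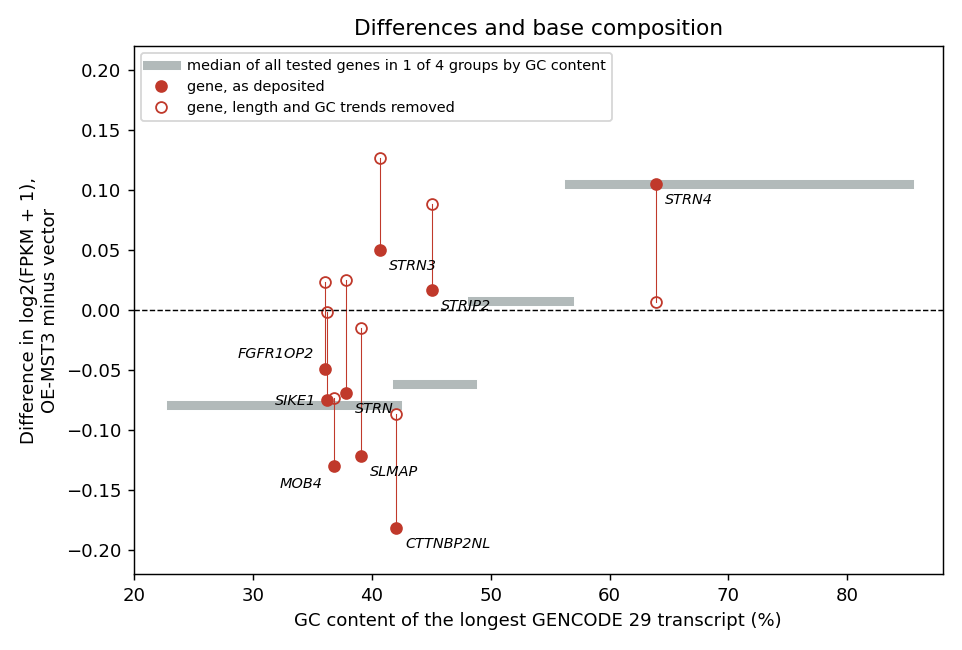
Difference in log2(FPKM + 1), OE-MST3 minus vector, of the 9 genes against the GC content of their longest GENCODE 29 transcript in percent; filled points are values as deposited, open points those after removal of each library's length and GC trends, and grey bars are medians of all tested genes in each of 4 equal groups by GC content. STRN4 at 63.9% GC lies on the grey bar of its group at 0.10 and at 0.01 after removal, and the 7 genes of low GC content move upward.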

How the data were processed

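The deposited table gives FPKM, the only unit used, for each gene and library. Per the submitters' processing notes the authors used HISAT2. Its version, the counting program, strand setting and annotation were not given in the sources used here. All 58735 Ensembl entries had the coordinates and union exon length of GENCODE 29 (GRCh38). FPKM times gene length was a whole multiple of 1 step for 100% of values above 0 (tolerance 0.01), which gave the reads; 1 read on 1 kb was worth 0.0569 to 0.0627 FPKM. Counting errors are square roots of reads and cover counting error only.

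OE-MST3 minus vector was tested on log2(FPKM + 1) with limma 3.58.1 (R 4.3.3, trend, two-sided, Benjamini-Hochberg at 0.05) over the 13036 genes averaging 1 FPKM or more. This scale understates changes of low genes. Shares used exact permutation tests (scipy 1.17.1). Simulated data with 200 of 13036 genes changed tested the fit, and 3.87% of the genes called there were unchanged ones. GC content, of the longest transcript, was known for 99.2% of tested genes. No pair of libraries within a group was as alike as sampling noise allows. The members and lists were chosen with earlier results of these data known. All 9 genes were named, together with STK24, up to 3 genes of each list with the smallest p and the 3 nearest profiles. Genes named as paralogs or overlapping neighbours are given by that relation. Some genes of the complex and neighbouring genes are not reported here.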

Additional observations from a re-analysis of the deposited data

How the results depend on the processing

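No alternative called any of the 9 genes, and each called 1 gene over all. Alternatives were a pseudocount of 0.1, no filter and a filter of 5 FPKM (which left out STRIP2 and MOB4), median-of-ratios factors, sums made equal leaving out STK24, a prior with no trend, removal of the length trend, a replicate block, protein-coding genes alone and each library left out. Voom on recovered reads and removal of length and GC trends were added after seeing the data. The count of lower genes among the 9 stayed between 4 and 7. With length and GC trends removed their median was 0.0067, STRN was at 0.025 and FGFR1OP2 at 0.023. With a library left out, differences ranged from -0.093 to 0.014 for FGFR1OP2, -0.031 to 0.066 for STRIP2, -0.035 to 0.12 for STRN3 and -0.023 to 0.19 for STRN4. Shares ranged from -1.80 to 2.27 points for STRN3, -1.45 to 4.82 for STRN4 and -0.72 to 1.15 for FGFR1OP2. The causes were not tested. For genes that kept their sign with a library left out, the ranges were -0.12 to -0.019 for STRN, -0.17 to -0.092 for MOB4, -0.20 to -0.055 for SLMAP, -0.13 to -0.034 for SIKE1 and -0.23 to -0.13 for CTTNBP2NL. With length and GC trends removed SIKE1 was at -0.0019 and SLMAP at -0.015. Same-numbered libraries correlated at 0.0158, 0.226 and 0.035 in their deviations, against -0.148 to 0.122 for differently numbered ones. The main fit did not use the numbers as pairs, and the labels do not say whether they mark pairs. Without OE-MST3 replicate 2, 2555 genes had an unadjusted p under 0.05, SLMAP and CTTNBP2NL among them. With the replicate block 0 of the 9 were called, and 1338 genes, CTTNBP2NL among them, had an unadjusted p under 0.05 by limma, against 701 without it. The count tests edgeR and DESeq2 and TMM scaling were planned and not run, and voom on the reads recovered from FPKM was used instead. Depth limits MOB4 most, at 167 to 213 reads.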
